A study of Mus musculus with 6 samples.

Results

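The genes described here are 42 genes of mitosis, chosen by name. A row of the table belonged to the set if its Ensembl identifier maps in GENCODE M21 (mouse, GRCm38) to 1 of 42 listed symbols. This choice, and that of the lists set beside the 42 genes, was made with earlier results of these data known. All 42 were found among the 16540 genes of the table. They fall into 7 mitotic kinases and cyclins, 15 kinetochore and checkpoint genes, 11 kinesins and spindle genes, and 9 genes of condensin, chromosome structure and cytokinesis. The cells are NIH-3T3, an established mouse embryonic fibroblast line of NIH/Swiss origin, and the series title concerns pyruvate carboxylase in fibroblasts and collagen production. Lentivirus delivered Cas9, the nuclease that cuts DNA where a guide RNA directs it, and 1 guide, and infected cells were kept as uncloned pools after selection in 2 ug/mL puromycin. The compared groups were the PC sg2 pool (2 libraries), the PC sg5 pool (2 libraries) and the control pool with guide R26 sg1 (2 libraries). Both PC guides are named for pyruvate carboxylase, the mitochondrial enzyme that makes oxaloacetate from pyruvate (gene Pcx), and the control guide is named for Rosa26, a locus often used as a neutral target. All pools, the control included, carried Cas9 and spent 48 h in DMEM with 0.2 mM glutamine and 10% dialyzed serum. An uncloned pool can mix cells with different edits and unedited cells. Separate cultures for the replicate libraries are not stated in the labels, and p-values therefore describe only the spread between these libraries, which may be technical.

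Mitotic genes are switched on late in the cell cycle, from S phase into G2 and mitosis, and their transcripts are scarce in cells that rest or sit in G1. The kinase Cdk1 with its A- and B-type cyclins drives entry into mitosis, the kinetochore joins centromeres to the spindle and holds back the anaphase-promoting complex through the spindle checkpoint, motors of the kinesin family shape the spindle, condensin compacts the chromosomes, and the cytokinesis machinery then splits the cell. Their promoters are known to share CHR elements, which are bound by the MuvB core complex together with either p130 and E2F4 as the repressive DREAM complex or with B-Myb and FoxM1 as activators, and CCAAT boxes, which are bound by NF-Y.

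Transcripts of 38 of the 42 mitotic genes were lower in the PC pools than in the control pool, none was higher, and 4 did not pass the threshold (limma on log2(normalised count + 1), both PC guides against control, adjusted p under 0.05 over 16526 genes). Without adjustment, 39 were lower and 0 higher at p under 0.05, and the edgeR and DESeq2 tests also gave 38 lower and 0 higher. Among all genes tested, 33.6% were lower and 34.3% were higher by the same rule. The median log2 fold change was -0.77 over the 42 genes and -0.01 over all genes tested. At least a 2-fold fall was found for 13 of the 42, against 11.3% of all genes tested. Ccnb2, Hmmr, Plk1, Cenpa and Mki67 had the largest falls, at log2 fold changes of -2.09, -1.51, -1.39, -1.36 and -1.30. The 4 that did not pass were Ect2, Smc2, Cdca8 and Mad2l1, at -0.10, -0.04, 0.00 and 0.03. All 4 PC libraries lay below both control libraries for 38 of the 42 genes and for 36.6% of all genes tested.

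The summed level of the 42 genes was 74248 and 72573 normalised counts in the PC sg2 libraries, 75583 and 72053 in the PC sg5 libraries, and 124808 and 123847 in the control libraries. The PC libraries lay close to each other, did not overlap the controls and averaged 59.2% of the control mean. As a share of all counts, the sum took 0.146% to 0.153% in the PC libraries and 0.238% to 0.241% in the control libraries. The 4 role groups had similar summed levels, between 57.6% of control for the kinesins and spindle genes and 60.7% for the kinetochore and checkpoint genes. Within the groups the genes spread widely, and the median log2 fold change was -0.74 for kinases and cyclins, -0.80 for kinetochore and checkpoint, -0.99 for kinesins and spindle, and -0.58 for condensin, chromosome structure and cytokinesis. In bulk RNA, fewer cells in G2 and mitosis and less of these transcripts per cell cannot be told apart.

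**Figure D1:**
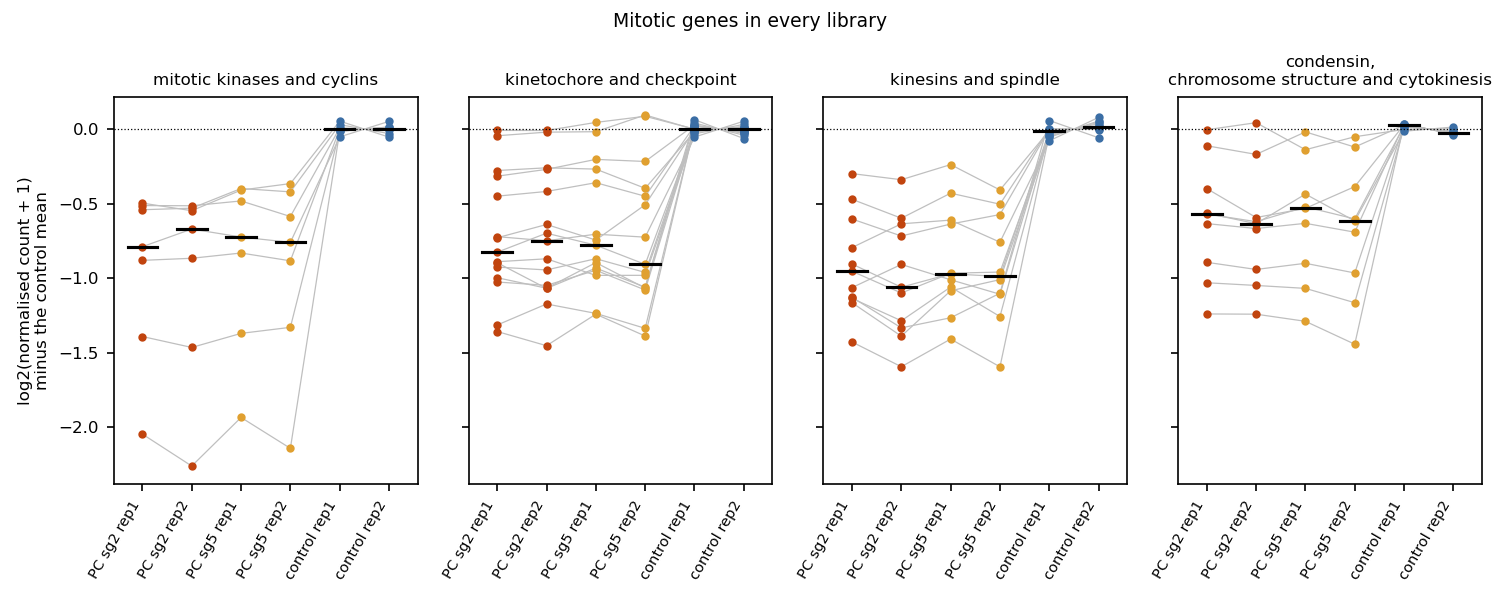
Each point is 1 gene in 1 library, as log2(normalised count + 1) minus the mean of the 2 control libraries on the same scale, with 1 panel per role group; grey lines join the values of a gene and black bars mark the median. The medians of the 4 PC libraries lie below those of the 2 control libraries in every panel, with PC library medians over all 42 genes from -0.82 to -0.73, and a few genes stay near 0.

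The libraries held 22895172 to 63701586 recovered reads in the PC pools and 69337013 and 71710049 in the control pool, and no mitotic gene had fewer than 169 reads in any library. Pcx, the targeted gene, had 316 and 375 normalised counts with PC sg2, 713 and 716 with PC sg5, and 2914 and 3015 in the control, a mean of 17.9% of control. All 12 fibroblast markers tested, Col1a1, Vim, Pdgfra and Thy1 among them, were present and all 12 were lower in the PC pools (summed level 1032400 to 1069700 against 1888320 and 1957530 normalised counts in control). Of the 10 leukocyte and macrophage markers, 6 had a row in the table; they summed to 1290 to 1346 normalised counts in PC libraries, against 2033 and 2139 in control, and Ptprc, the pan-leukocyte marker, had none. Of the 7 endothelial markers, 3 had a row, with sums of 234 to 344 normalised counts in PC libraries and 99.93 and 100.1 in control; of the 3, Vwf was higher (log2 fold change 2.00 ± 0.17, SE), Pecam1 (0.44) and Tek (-0.21) did not pass, and Cdh5 had no row. Of the 8 epithelial markers only Cdh1 had a row, with 8.55 to 19.1 normalised counts in PC libraries and 57.4 and 58.7 in control. Whether these shifts have a part in the mitotic result was not tested.

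The falls are shown beside the promoters because most of these genes share the same short motifs there. In RefSeq windows on GRCm38.p6 from 250 bases before to 50 after the annotated gene start, 35 of the 42 genes had an entry, and both strands were searched for the CHR hexamers TTTGAA and TTCGAA and for the CCAAT box, CCAAT. A CHR hexamer was present in 29 of the 35 (82.9%), against 16.3% of all tested genes with an entry and 21.7% of all genes in the RefSeq table. A CCAAT box was present in 27 of 35 (77.1%), against 42.7% of tested genes and 41.1% of the RefSeq table. Both stood in the same window in 25 of 35 (71.4%), against 6.82% and 8.61%. The first base of the CHR matches lay at a median position of 3, counted from the first base of the gene, and that of the CCAAT boxes at -71, before it, and 26 of the 29 genes had a CHR match within 50 bases before the start or after it. In the lists of other mitotic genes described below, the share with both motifs was also above that of all tested genes. It ran from 11.1% (anaphase-promoting complex and its regulators) to 40.6% (spindle and centrosome genes). A share above that of all tested genes was not limited to mitotic genes. Of the S phase genes with an entry, 17.9% had both motifs and 64.3% had a CCAAT box, although 18 of the 35 S phase genes rose. The G1 and Rb-E2F genes also lay above all tested genes in both shares. A match is a description of the letters and not a measured binding site.

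The gene with the largest fall in each role group is shown first, with 200 bases before and 30 bases after its RefSeq start, 5′ to 3′ along the gene's strand. Capitals mark the CHR hexamers (TTTGAA or TTCGAA, or their reverse complements TTCAAA and TTCGAA) and the CCAAT boxes (CCAAT or its reverse complement ATTGG).
Ccnb2 (chr9:70421525-70421754, minus strand): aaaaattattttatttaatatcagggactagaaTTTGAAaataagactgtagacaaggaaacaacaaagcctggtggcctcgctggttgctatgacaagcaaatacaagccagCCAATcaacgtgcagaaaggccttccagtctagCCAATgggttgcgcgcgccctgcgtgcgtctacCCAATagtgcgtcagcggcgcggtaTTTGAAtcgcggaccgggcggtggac
Cenpa (chr5:30666686-30666915, plus strand): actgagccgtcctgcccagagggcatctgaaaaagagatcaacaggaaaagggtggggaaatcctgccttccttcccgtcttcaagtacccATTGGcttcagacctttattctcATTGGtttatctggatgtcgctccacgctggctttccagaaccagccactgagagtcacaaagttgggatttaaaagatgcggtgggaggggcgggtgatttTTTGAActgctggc
Hmmr (chr11:40733408-40733637, minus strand): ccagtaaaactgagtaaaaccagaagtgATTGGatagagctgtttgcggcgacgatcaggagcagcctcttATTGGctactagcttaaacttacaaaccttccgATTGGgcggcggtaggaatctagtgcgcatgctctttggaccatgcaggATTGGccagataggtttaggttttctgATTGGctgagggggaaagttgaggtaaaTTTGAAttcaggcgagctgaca
Mki67 (chr7:135716350-135716579, minus strand): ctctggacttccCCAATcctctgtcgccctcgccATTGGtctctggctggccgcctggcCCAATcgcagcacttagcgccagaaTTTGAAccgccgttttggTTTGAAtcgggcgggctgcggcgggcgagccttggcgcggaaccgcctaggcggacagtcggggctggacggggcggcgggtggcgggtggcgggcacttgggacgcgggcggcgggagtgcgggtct
Each of these 4 stretches holds a CHR hexamer and at least 2 CCAAT boxes: 2 and 3 in Ccnb2, 1 and 2 in Cenpa, 1 and 5 in Hmmr, and 2 and 3 in Mki67. In Ccnb2, Cenpa and Hmmr the CCAAT boxes come before the CHR hexamer that lies just after the start.

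Genes that did not pass the threshold are shown for comparison, and 2 of these 3 carry the same letters.
Smc2 (chr4:52439021-52439250, plus strand): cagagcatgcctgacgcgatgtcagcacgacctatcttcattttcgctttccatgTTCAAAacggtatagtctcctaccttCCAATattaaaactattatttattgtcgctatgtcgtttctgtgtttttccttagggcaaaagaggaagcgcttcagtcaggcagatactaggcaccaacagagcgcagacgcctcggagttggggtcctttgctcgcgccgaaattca
Cdca8 (chr4:124936888-124937117, minus strand): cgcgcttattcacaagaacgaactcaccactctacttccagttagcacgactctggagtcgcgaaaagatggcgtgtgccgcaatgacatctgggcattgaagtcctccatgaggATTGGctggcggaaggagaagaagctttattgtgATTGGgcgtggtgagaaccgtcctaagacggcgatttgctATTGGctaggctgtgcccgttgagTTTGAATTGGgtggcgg
Mad2l1 (chr6:66535021-66535250, plus strand): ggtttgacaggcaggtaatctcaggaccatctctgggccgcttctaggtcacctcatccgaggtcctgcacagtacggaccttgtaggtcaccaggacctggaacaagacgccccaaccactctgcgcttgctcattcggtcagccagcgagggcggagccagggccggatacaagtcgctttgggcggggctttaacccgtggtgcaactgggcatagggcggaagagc
Smc2 holds 1 whole CHR hexamer and 1 CCAAT box in this stretch. Another CHR hexamer of Smc2 starts at position 27 and is cut off, unmarked, by the end of the stretch. Cdca8 holds 1 CHR hexamer and 4 CCAAT boxes. Its CHR hexamer shares bases with a CCAAT box, the single such overlap in the 35 genes. Mad2l1 holds neither. The RefSeq start of Cdca8 lies 2394 bases and that of Mad2l1 169 bases from the outermost GENCODE end of the gene, against 7 for Ccnb2, 15 for Hmmr, 18 for Mki67, 22 for Smc2 and 109 for Cenpa, so the windows of Cdca8 and Mad2l1 depend on the annotation. Windows of genes that fell can depend on it as well. That of Kif2c (chr4:117178723-117179022, minus strand) lies inside its GENCODE gene, which ends at 117182639. That of Kif4 (chrX:100625815-100626114, plus strand) lies inside its gene, which starts at 100625737. Among the 35 genes, the median log2 fold change was -0.92 in the 29 with a CHR hexamer and -0.90 in the 6 without. It was -0.92 in the 27 with a CCAAT box and -0.68 in the 8 without, and -0.92 in the 25 with both motifs and -0.68 in the other 10. These differences were not tested, and 3 of the 4 genes that did not pass (Ect2, Smc2 and Cdca8) held both motifs. Nusap1, Nuf2 and Birc5, which fell, held neither in their windows.

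**Figure D2:**
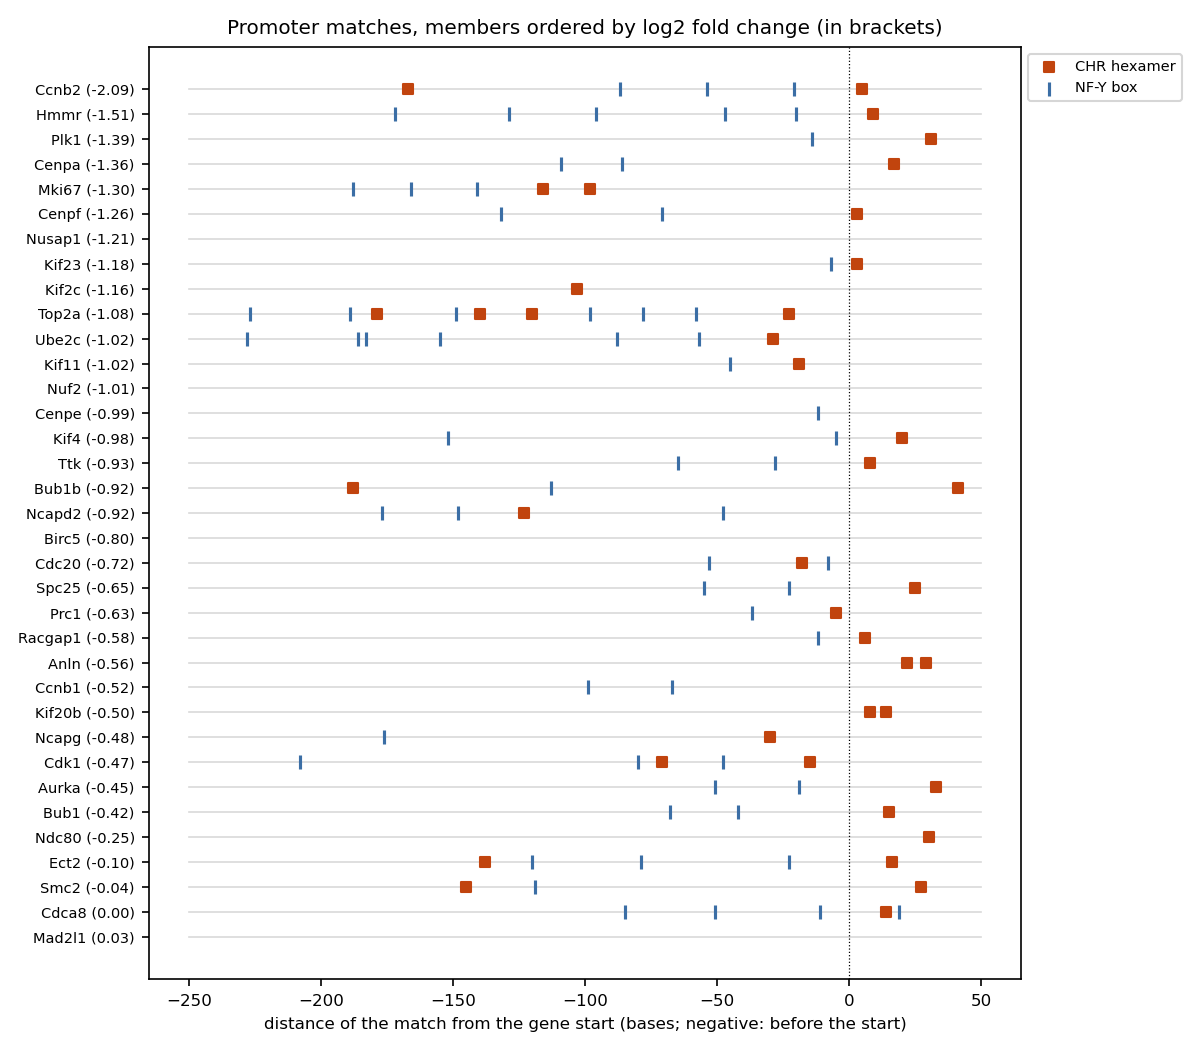
Positions of CHR hexamers (squares) and NF-Y boxes (CCAAT, bars) along the RefSeq window of each of the 35 genes with an entry, ordered from the largest fall at the top to the genes near 0 at the bottom; the x axis is the distance in bases from the annotated start, and 1 window is drawn for the 2 genes with several. Most genes carry a square near the start with bars before it, from Ccnb2 (-2.09) down to Cdca8 (0.00).

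All 7 mitotic kinases and cyclins fell. Ccnb2 (ENSMUSG00000032218, chr9:70407692-70421547, minus strand), a B-type cyclin that activates Cdk1, had 399.7 and 344 normalised counts with PC sg2, 432 and 374 with PC sg5, and 1635 and 1669 in the control. Every PC library lay far below both controls, with a log2 fold change of -2.09 ± 0.08 (SE; adjusted p = 2.45e-15). Plk1, the polo-like kinase needed for spindle assembly and mitotic exit, had 678 and 644 with PC sg2, 688 and 708 with PC sg5, and 1762 and 1795 normalised counts in the control (log2 fold change -1.39 ± 0.06, SE). The PC libraries formed 1 tight group below the controls. Ccna2, the A-type cyclin of S phase and G2, had 1861 and 1880 with PC sg2, 1926 and 1857 with PC sg5, and 3429 and 3423 normalised counts in the control (-0.86 ± 0.04), again with no overlap. Exons of Exosc9 cover 12.5% of the Ccna2 exon bases, and 6.84% of the 50-base stretches of Plk1 occur elsewhere.

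Ccnb1 and Cdk1, the cyclin and kinase at the core of mitotic entry, fell less than Ccnb2. Ccnb1 had 1979 and 1977 normalised counts with PC sg2, 2022 and 1881 with PC sg5, and 2839 and 2809 in the control (log2 fold change -0.52 ± 0.04, SE). The groups did not overlap, but 42.1% of the 50-base stretches of the Ccnb1 exons also occur in its pseudogenes, so its value is uncertain. Cdk1 had 2209 and 2225 with PC sg2, 2438 and 2400.4 with PC sg5, and 3281 and 3147 normalised counts in the control (-0.47 ± 0.04), with all PC libraries lower. Aurkb, the kinase of the chromosomal passenger complex, had 633 and 687 with PC sg2, 662 and 646 with PC sg5, and 1055 and 1133 normalised counts in the control (-0.74 ± 0.07). Aurka, the kinase of the spindle poles, showed the smallest change of the group at -0.45.

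Of the 15 kinetochore and checkpoint genes, 13 were lower. Cenpa (ENSMUSG00000029177, chr5:30666777-30674830, plus strand), the histone H3 variant that marks centromeres, had 869 and 813 normalised counts with PC sg2, 942 and 851 with PC sg5, and 2260 and 2194 in the control (log2 fold change -1.36 ± 0.06, SE; adjusted p = 1.28e-14). Cenpf, a large protein of the outer kinetochore, had 1146 and 1264 with PC sg2, 1209.9 and 1129 with PC sg5, and 2894 and 2806 normalised counts in the control (-1.26 ± 0.05). No PC library came near a control library for either gene. Ube2c, a ubiquitin-conjugating enzyme of the anaphase-promoting complex, had 898 and 884.5 with PC sg2, 949 and 866 with PC sg5, and 1835 and 1824 normalised counts in the control (-1.02 ± 0.06), and 22.8% of its exon bases overlap Tnnc2. Cenpe, the kinesin motor of kinetochores, stood at -0.99.

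The checkpoint genes divided. Ttk and Bub1b, a kinase and a kinase-like protein that keep the checkpoint active, fell by 0.93 and 0.92 on the log2 scale, and the kinase gene Bub1 fell by 0.42. Mad2l1, whose product binds and holds back Cdc20, had 1646 and 1645 normalised counts with PC sg2, 1708 and 1757 with PC sg5, and 1656 and 1655 in the control, and the PC libraries lay on both sides of the controls. Its log2 fold change was 0.03, with a 95% interval from -0.07 to 0.13 (adjusted p = 0.621). Cdc20, the activator of the anaphase-promoting complex, had 2151 and 2110.3 with PC sg2, 2176 and 2146 with PC sg5, and 3417 and 3680.2 normalised counts in the control. All 4 PC libraries were below both controls (-0.72 ± 0.04), and 11.4% of its 50-base stretches occur elsewhere.

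Members of the same kinetochore complex did not fall by the same amount. In the NDC80 complex, which binds spindle microtubules, Nuf2 fell by 1.01, Spc25 by 0.65 and Ndc80 by 0.25 on the log2 scale. In the chromosomal passenger complex, Birc5 (survivin) had 774 and 845 normalised counts with PC sg2, 799 and 731 with PC sg5, and 1357 and 1386.5 in the control (log2 fold change -0.80 ± 0.07, SE), with no overlap. Its scaffold gene Incenp fell by 0.30. Cdca8 (borealin), a further subunit, had 1025 and 1042 with PC sg2, 1044 and 1129 with PC sg5, and 1055 and 1058 normalised counts in the control. Its PC libraries lay on both sides of the controls, and the log2 fold change of 0.00 had a 95% interval from -0.12 to 0.13 (adjusted p = 0.966).

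All 11 kinesins and spindle genes fell, and the group had the lowest median. Hmmr (ENSMUSG00000020330, chr11:40701395-40733422, minus strand), a spindle microtubule-binding protein, had 629 and 560.3 normalised counts with PC sg2, 637 and 560.0 with PC sg5, and 1649 and 1737 in the control (log2 fold change -1.51 ± 0.07, SE; adjusted p = 6.49e-14). Nusap1, which bundles microtubules around chromosomes, had 749 and 650 with PC sg2, 681 and 763 with PC sg5, and 1704 and 1573 normalised counts in the control (-1.21 ± 0.07). Every PC library was far below both controls for both genes. Kif23, the motor of the centralspindlin complex at the spindle midzone, had 1053 and 949 with PC sg2, 1111 and 968 with PC sg5, and 2278 and 2352 normalised counts in the control (-1.18 ± 0.06). Its 4 PC values were all below both controls.

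Of the remaining kinesins, Kif2c, a microtubule depolymerase, stood at -1.16, Kif11, the motor that pushes the poles apart, at -1.02, Kif20a, a midzone motor, at -0.99, and Kif4, a chromosome-bound motor, at -0.98. Kif20b, a kinesin of late cytokinesis, fell by 0.50. Of the other non-motor genes, Dlgap5, a stabiliser of kinetochore fibres, stood at -0.70, Prc1, which crosslinks midzone microtubules, at -0.63, and Tpx2, the activator of Aurora A, at -0.32. Exons of other genes cover 29.3% of the exon bases of Kif20a (Cdc23), 15.1% of Kif4 (Pdzd11) and 11.1% of Prc1 (Rccd1), and the kit does not mark the strand, so reads from those bases cannot be assigned with certainty. Cdc23 itself stood at -0.09.

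Among the 9 genes of condensin, chromosome structure and cytokinesis, 7 fell. Mki67 (ENSMUSG00000031004, chr7:135689784-135716361, minus strand), the proliferation marker that coats mitotic chromosomes, had 3322 and 3318 normalised counts with PC sg2, 3209.8 and 2886 with PC sg5, and 8042 and 7647 in the control. Top2a, the topoisomerase that untangles sister chromatids, had 6311 and 6232 with PC sg2, 6148 and 5752 with PC sg5, and 13012 and 12764 normalised counts in the control. For both genes the PC libraries lay well below both controls, at log2 fold changes of -1.30 ± 0.04 and -1.08 ± 0.03 (SE). Ncapd2, a condensin I subunit, had 2875 and 2781 with PC sg2, 2862 and 2736 with PC sg5, and 5440.5 and 5241 normalised counts in the control (-0.92 ± 0.04), again without overlap.

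The paired subunits of condensin went apart. Smc4 fell by 0.66, whereas Smc2, which forms the condensin core with it, had 3063 and 3165 normalised counts with PC sg2, 2791 and 2965 with PC sg5, and 3067 and 3076 in the control. The Smc2 libraries overlapped, and its log2 fold change of -0.04 had a 95% interval from -0.12 to 0.05 (adjusted p = 0.427). Ncapg, a further condensin I subunit of which 13.4% of the exon bases overlap Lcorl, fell by 0.48. Of the cytokinesis genes, Racgap1, the centralspindlin partner of Kif23, fell by 0.58 and Anln, the scaffold of the contractile ring, by 0.56. Ect2, the exchange factor that activates RhoA at the equator, had 2043 and 1962.5 with PC sg2, 2179 and 2031 with PC sg5, and 2248.5 and 2167 normalised counts in the control. One PC sg5 library lay between the 2 controls, and the change of -0.10 ± 0.05 missed the threshold (adjusted p = 0.0547).

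**Figure D3:**
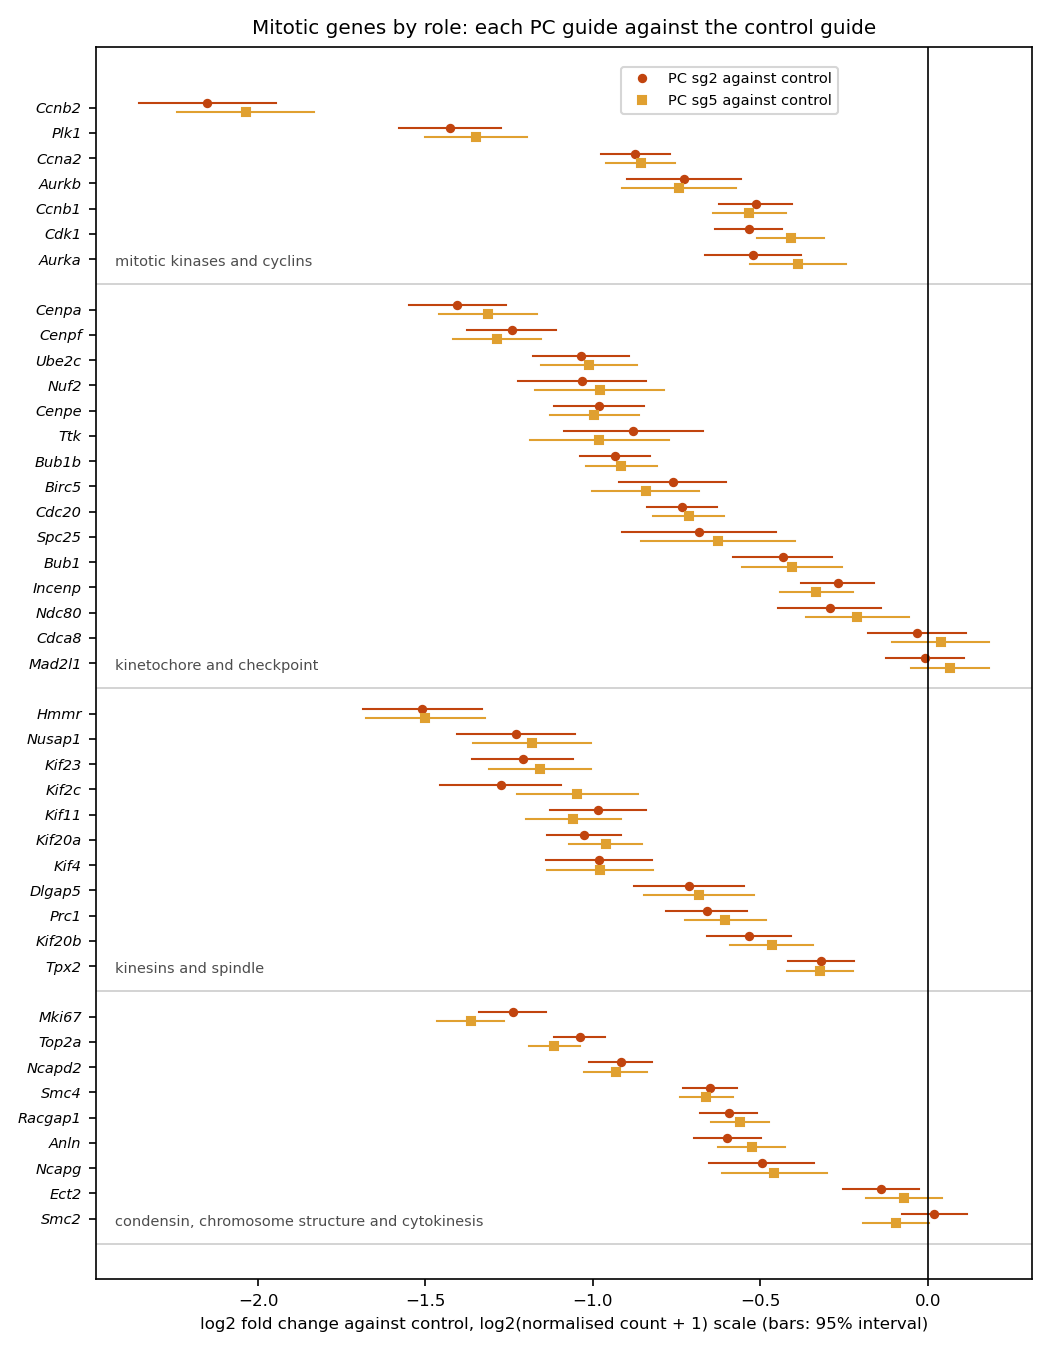
Log2 fold changes of the 42 genes with each PC guide against the control (circles PC sg2, squares PC sg5, bars 95% intervals from the limma fit), grouped by role and ordered by size. The values run from -2.15 with PC sg2 and -2.04 with PC sg5 for Ccnb2 to near 0 for Cdca8, Mad2l1, Smc2 and Ect2, and the intervals of the 2 guides overlap for each gene.

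The uneven falls changed the ratio of transcripts that encode partners, and such ratios do not depend on the library scaling. The Nuf2 to Ndc80 ratio averaged 0.587 ± 0.033 in the PC libraries and 0.990 ± 0.013 in the control libraries (SD, n = 4 and 2). Birc5 to Cdca8 averaged 0.745 ± 0.069 in PC and 1.30 ± 0.018 in control libraries, and Smc4 to Smc2 averaged 1.74 ± 0.11 in PC and 2.67 ± 0.089 in control libraries. In every pair the gene that fell more was divided by the gene that fell less, so lower ratios in the PC libraries follow from this order. Each PC ratio lay below both control ratios. Kif23 to Racgap1 averaged 0.243 ± 0.011 in PC and 0.369 ± 0.016 in control libraries. Ccnb2 to Ccnb1 averaged 0.197 ± 0.017 in PC and 0.585 ± 0.013 in control libraries, and rests on the uncertain Ccnb1 value. The pairs were chosen with results known and the ratios were not tested; they compare libraries and not the amounts of the partner proteins.

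**Figure D4:**
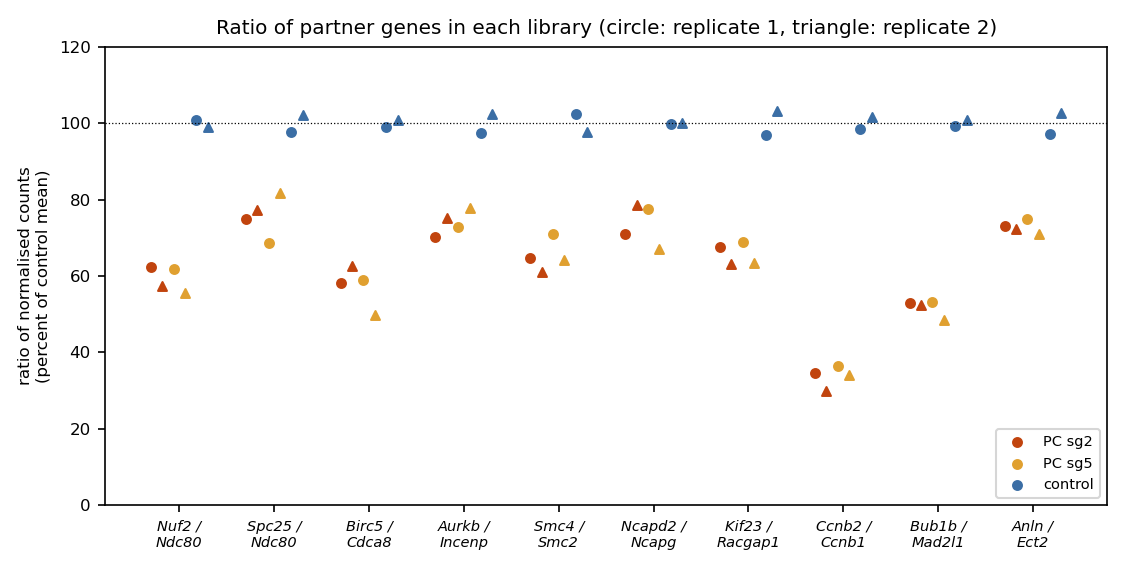
Ratio of normalised counts of 10 pairs of partner genes in each library, as a percent of the control mean of that ratio (PC sg2, PC sg5 and control from left to right within a pair; circles replicate 1, triangles replicate 2). The gene that fell more is the numerator in every pair, so the direction follows from this order. All PC points lie below the control points, furthest for Ccnb2 over Ccnb1 and nearest for one PC sg5 library of Spc25 over Ndc80.

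The values with the PC guides lay close to each other. With PC sg2, 39 of the 42 genes were lower than in control (31.6% of all genes tested were), and with PC sg5, 38 were (31.8% of all genes tested), with medians of -0.75 and -0.79. These comparisons share the control libraries. Ect2 passed the threshold with PC sg2 (-0.14, adjusted p = 0.029) and not with PC sg5 (-0.07, adjusted p = 0.28). In the direct test of PC sg5 against PC sg2, 0 of the 42 genes passed with limma, against 0.242% of all genes. Without PC sg5 replicate 1, 1 gene passed (Mki67, -0.20, adjusted p = 0.0429). At an unadjusted p under 0.05 this fit gave 3 genes lower (Mki67, Top2a and Smc2) and 2 higher (Kif2c and Cdk1) with PC sg5. The edgeR test also gave 0, and DESeq2 gave 0 but left the adjusted p of 41 of the 42 undefined. Every 95% interval of the 42 differences between guides lay between -0.31 and 0.41 on the log2 scale. Pcx itself differed, with 715 ± 2.0 normalised counts with PC sg5 and 345 ± 42 with PC sg2 (SD, n = 2 each).

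Scaled by the merged length of all annotated exons, the order of the levels shifted, and these ranks depend on the annotation. Cdc20 was the most abundant of the 42 in both groups, at 1149 normalised counts per kilobase of exon in the PC pools and 1899.7 in the control, followed by Smc4 at 999 in the PC pools and 1574 in the control. Ccnb2 ranked 20 of 42 in the PC pools at 253 per kilobase and 5 of 42 in the control at 1079. Ttk was the least abundant in both, at 76.1 per kilobase in the PC pools and 145 in the control. The size of the fall was only weakly related to how long, how GC-rich or how abundant a gene was: across the 42 genes, the log2 fold change correlated at 0.16 with log10 exon length, at -0.26 with GC percent and at -0.05 with the log2 control level. These are descriptions over genes that share the same libraries.

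Of 18 genes that regulate transcription of this set, 12 rose (66.7%, against 34.3% of all genes tested), 3 fell (16.7%, against 33.6%) and 3 did not pass. Foxm1, the activator of late cell cycle genes, had 1441 and 1426 normalised counts with PC sg2, 1471 and 1454 with PC sg5, and 2445 and 2074 in the control. All PC values were lower, the controls differed more between themselves than the PC libraries did, and the log2 fold change was -0.64 ± 0.06 (SE; adjusted p = 2.25e-09). Mybl2 (B-Myb) had 683 and 672 with PC sg2, 624 and 622 with PC sg5, and 729 and 752 normalised counts in the control (-0.19 ± 0.07, adjusted p = 0.0261), a call that was lost in 8 of 18 alternative analyses. The lowest value in this list was that of Rbl2 (p130), at -0.66, with 20.97% of its exon bases shared with other genes. Lin54 and Lin9, subunits of MuvB, had the highest values at 0.92 and 0.86. Cdkn1a, the p53-induced inhibitor p21, had 11061 and 12021 with PC sg2, 10818 and 11923 with PC sg5, and 9773 and 10062 normalised counts in the control (0.21 ± 0.04, adjusted p = 3.66e-05), a call lost when no intensity trend was fitted (adjusted p = 0.0504). No PC library overlapped the controls.

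Lists of other mitotic genes held both falls and rises, beside 33.6% lower and 34.3% higher among all genes tested. Of 18 genes of the mitotic entry switch, 10 fell (55.6%) and 5 rose (27.8%; median -0.37): Ccnf and Cdc25c, a cyclin and a Cdk1-activating phosphatase with 12.7% of its exon bases in another gene, were lowest at -1.10 and -0.92, and Wee1 and Cdc25a were highest at 0.64 and 0.55. Of 39 other kinetochore and checkpoint genes, 17 fell (43.6%) and 6 rose (15.4%; median -0.10), with the centromere gene Cenpm at -1.37 and the NDC80 subunit gene Spc24 at -1.12, and Zwint at 0.75 and Cenpq at 0.43. The 19 genes of the anaphase-promoting complex and its regulators had 11 falls (57.9%) and 4 rises (21.1%; median -0.31), led by the securin gene Pttg1 at -0.90 and Anapc2 at -0.71, with Anapc16 at 0.66 and Anapc11 at 0.54. These lists hold fewer falls per gene than the 42 genes. All were chosen with earlier results of these data known, and the difference between lists was not tested.

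Of 35 spindle and centrosome genes outside the 42, 19 fell (54.3%, against 33.6% of all genes tested) and 6 rose (17.1%, against 34.3%). Their median was -0.16. Fam83d stood at -1.46, Aspm, the spindle pole protein, at -1.24, and Haus2, a subunit of the augmin complex, at 0.42. Kif2a, with 19.2% of its exon bases in Dimt1, stood at 0.37. Of 33 other condensin, cohesin and cytokinesis genes, 17 fell (51.5%) and 11 rose (33.3%; median -0.09), and the share that rose was near that of all genes. The cohesin acetyltransferase gene Esco2 at -1.31 and Cdca3 at -1.17 were lowest, and the cohesin release factor gene Wapl at 0.60 and Pds5a at 0.58 were highest. Of 35 S phase genes set beside them, 11 fell (31.4%, near the 33.6% of all genes tested) and 18 rose (51.4%, against 34.3%). The median of the S phase genes was 0.16. Tk1, the thymidine kinase, and Lig1, the replicative DNA ligase, were lowest at -1.03 and -0.74, and Cdt1, a licensing factor, and Fen1, the flap endonuclease, were highest at 0.98 and 0.85, but 84.2% of the Fen1 exon bases overlap other genes. The summed level of the S phase genes was 92441 to 95009 normalised counts in PC libraries and 80797 and 80032 in control libraries, 116.7% of control, while that of the 42 mitotic genes was 59.2%.

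**Figure D5:**
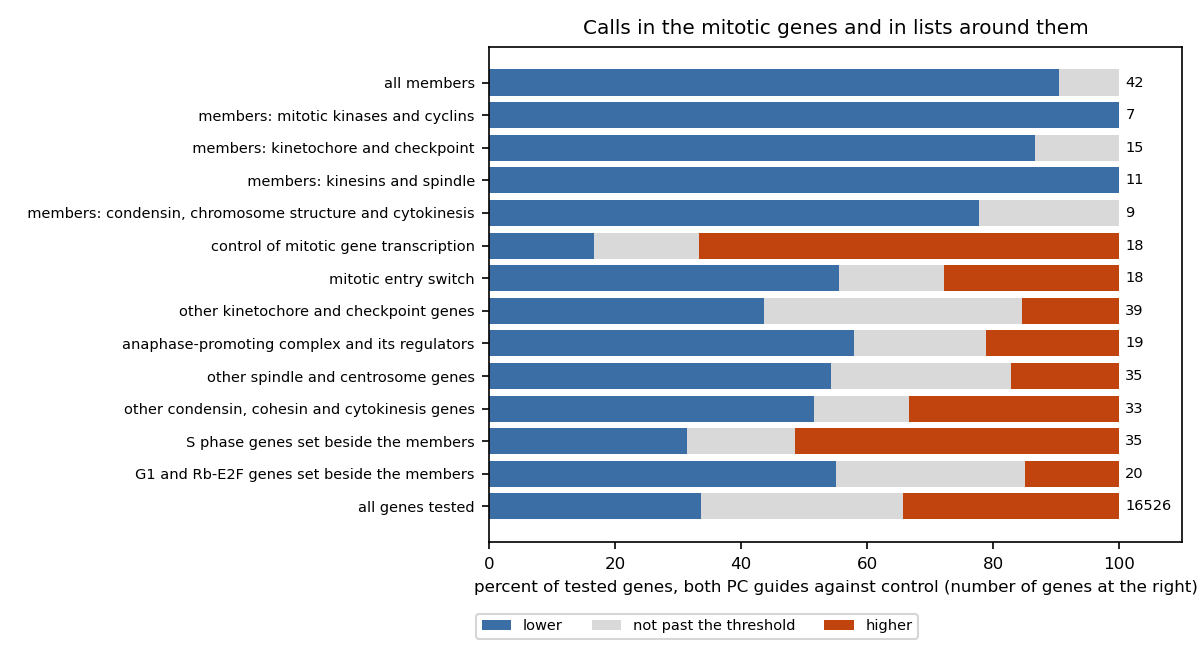
Percent of tested genes called lower, not past the threshold and higher for both PC guides against control, for the 42 mitotic genes, their 4 role groups, the lists around them and all genes; the number of genes stands at the right. The mitotic genes are lower in 38 of 42 cases with none higher, whereas the other lists and all genes hold both directions.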

How the data were processed

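RNA from 6 NIH-3T3 libraries (poly-A, NEBNext Ultra) was sequenced. Per the submitters' processing notes, the tools were bcl2fastq 2.17, Trimmomatic, STAR, featureCounts and DESeq2 on GRCm38; their settings, the annotation and the use of strand are not given in these sources. Normalised counts were deposited by the authors: a signal of read counts divided by a size factor per library. Within a library, 100% of values were whole multiples (tolerance 0.01) of the value of 1 read, so whole reads were recovered. The 3-read floor was 2.18 to 6.41 normalised counts (counting error only). Identifiers were matched exactly to GENCODE M21; 16498 of 16540 received a symbol.

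limma 3.58.1 (R 4.3.3) was fitted to log2(normalised count + 1), as 1 model of 3 groups with an intensity trend, two-sided, with Benjamini-Hochberg adjustment over 16526 genes (14 with fewer than 2 libraries reaching 10 normalised counts were removed; 3 residual degrees of freedom). Fold changes on this scale understate those of low genes. The fit was tested on simulated data. edgeR 4.0.16 (quasi-likelihood) and DESeq2 1.42.0 on recovered reads, other scalings, filters and left-out libraries were alternatives. Promoter windows are RefSeq's (GRCm38.p6). Levels per kilobase use merged GENCODE exons. The 42 members and the lists around them were chosen with earlier results of these data known. Values per library are given for the 3 largest falls in each role group, for Mki67, Top2a, Ccnb1, Cdk1, Plk1, Aurkb, Cdc20, Birc5, Foxm1, Mybl2, Cdkn1a and Pcx, and for members not past the threshold; in each list around them the 2 highest and 2 lowest genes past the threshold are named.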

Additional observations from a re-analysis of the deposited data

How the results depend on the processing

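The 38 falling genes fell and passed the threshold in all 18 alternatives for both PC guides against control, with 38 to 39 genes lower and 0 higher. The median log2 fold change over all 42 genes stayed between -0.80 and -0.69. It moved by more than the spread of replicates (0.04) to -0.72 without the 50 most abundant genes in the scaling and to -0.69 with length and GC trends removed, with or without the replicate block. For PC sg2 the median was -0.67 with length and GC trends removed, with or without the block, and -0.81 to -0.71 when 1 library was left out. For PC sg5 it was -0.74 without the 50 most abundant genes and -0.72 with length and GC trends removed, with or without the block. For PC sg5 against PC sg2, leaving out 1 library gave 0 to 1 genes lower (Mki67, -0.20, adjusted p = 0.0429, without PC sg5 replicate 1) and medians of -0.017 to 0.059. Of the split of all genes, 5163 were lower and 6127 higher without the 50 most abundant genes and 4907 and 6377 with length and GC trends removed, against 5548 and 5674.

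Genes near 0 changed sign. For both PC guides, Cdca8 ranged from -0.025 to 0.031 when 1 library was left out and was -0.0039 with edgeR, and Smc2 was 0.0068 without the 50 most abundant genes. With PC sg2, Cdca8 was 0.0066 without the 50 most abundant genes and 0.027 with length and GC trends removed (also with the block), Mad2l1 was 0.030 and 0.015 in the same settings, and Smc2 was -0.019 after quantile normalization and -0.0042 to 0.043 when 1 library was left out. With PC sg5, Cdca8 ranged from -0.017 to 0.095 when 1 library was left out. Smc2 with PC sg5 passed the threshold as lower after quantile normalization (-0.13, limma adjusted p = 0.0251), and stood at -0.14 without PC sg5 replicate 2. Ect2 with both guides passed the threshold in 4 alternatives (adjusted p = 0.0202 to 0.047). Ndc80 with PC sg5 lost its call in 4 and Ect2 with PC sg2 in 6, and the cause was not tested.

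The labels do not state whether replicate numbers pair the libraries across groups. Differences between replicates correlated at 0.03, -0.02 and 0.03 between groups over 16526 genes. Low values over all genes cannot decide whether libraries were handled in pairs. With the replicate block all 38 falls still passed, Ect2 passed as well (adjusted p = 0.0371), and the block gave 160 instead of 40 genes between the PC guides, none of them among the 42.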

Other observations

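Genes of G1 and the Rb-E2F pathway, which act before the mitotic genes in the cycle, moved in both directions: of 20 tested, 11 were lower (55.0%, against 33.6% of all genes tested), 3 were higher (15.0%, against 34.3%) and 6 did not pass the threshold (limma, both PC guides against control; median log2 fold change -0.25). The inhibitor gene Cdkn2c and the cyclin gene Ccnd1 were lowest at -1.30 and -1.03, and 23.4% of the Ccnd1 exon bases overlap LTO1. The transcription factor genes Myc and E2f3 were highest at 2.89 ± 0.03 and 0.44 ± 0.04 (SE). E2f1 stood at -0.11 (adjusted p = 0.0446) and Rb1 at -0.01 (adjusted p = 0.95).

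The promoter letters that most of the mitotic genes share were also counted outside the lists. Of 684 tested genes in none of the lists that held a CHR hexamer and a CCAAT box in 1 RefSeq window, 37.4% were lower and 36.1% higher (median -0.01), and of 10152 genes without both, 35.4% were lower and 39.5% higher (median 0.02). This is a description over genes, which are not independent, and the comparison was not tested. In a shorter window, from 150 bases before to 50 after the start, 82.9% of the 35 mitotic genes held a CHR hexamer and 68.6% both motifs, against 9.6% and 3.26% of tested genes.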
